A study of Mus musculus with 27 samples.

Results

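Acute myeloid leukemia (AML) cells taken from the endosteal region of the bone marrow were compared with AML cells taken from its central region, in the leukemias that were grown from marrow-derived blasts. The members were 12 of the 27 libraries of the study, chosen by their labels: 6 endosteal and 6 central libraries, with 3 of each from clone 1 and 3 of each from clone 3. The 6 libraries of a leukemia started from spleen blasts (clone 19) and the 9 libraries of normal granulocyte-macrophage progenitors (GMPs) were left out of the comparison. The leukemias were made by transducing myeloid progenitors of mT/mG mice, in which cells carry membrane tdTomato, with an MLL-AF9 retrovirus that also encodes GFP, and primary blasts were then transplanted into secondary recipients that received no irradiation. AML cells were sorted as DAPI-GFP+mTomato+ from tibias and femurs of fully infiltrated mice. Endosteal AML cells came from crushed metaphyses and central AML cells from flushed diaphyses, so that the region and the handling of the bone cannot be told apart. Each clone is 1 donor leukemia, and the labels neither pair an endosteal with a central library nor say which mice they came from, so the p-values measure only the spread between these libraries.

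MLL-AF9 is a fusion oncoprotein that keeps myeloid progenitors in a self-renewing state by holding genes such as Hoxa9 and Meis1 on. The endosteum is the inner lining of bone, where osteoblasts, osteoclasts and a particular type of capillary meet, and leukemia cells lodged there are exposed to other neighbours than cells in the central marrow. The comparison addressed which genes AML cells express differently in these places, above all secreted factors such as chemokines, TNF and VEGF that act on vessels and stroma.

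The libraries were 3′ tag libraries of polyadenylated RNA. Values are CPM, the reads of a gene scaled by the authors to the total reads of the library, and differences are endosteal minus central on the log2(CPM + 1) scale, which understates the change of genes near 1 CPM. The 6 endosteal libraries held about 7764000 to 13414000 reads (median 9438000 reads) and the 6 central libraries about 7823000 to 12880000 reads (median 10376500 reads). The table listed 5486 genes, each of which had passed the authors' own false discovery threshold for an unnamed contrast, and these genes took 22.1% to 28.3% of the reads of endosteal libraries and 22% to 23.2% of those of central libraries. Libraries are named by the numbers in the column names (endosteal 16, 18 and 20 and central 17, 19 and 21 for clone 1, endosteal 1, 3 and 5 and central 2, 4 and 6 for clone 3). Library 18 stood apart, with a correlation of log2 values of at most 0.881 with the other clone 1 libraries and 414 genes at 0, against 283 to 363 in the other 11 libraries. Library 3 had 64441 CPM of Gm42418, a transcript that overlaps ribosomal RNA sequence, against 926 to 26917 CPM in the other 11.

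The sorted cells had the markers of the model. Hoxa9 lay between 30.0 and 190 CPM in endosteal and between 65.7 and 160 CPM in central libraries. Meis1 lay between 49.0 and 369 CPM in endosteal and between 48.1 and 95.3 CPM in central libraries. The myeloid integrin Itgam was detected at 23.6 to 49.3 CPM in endosteal libraries and at 16.4 to 48.6 CPM in central libraries. Of the markers of other marrow cells in the table, 14 of 19 erythroid, 6 of 13 endothelial, 6 of 11 osteoblast and mesenchymal, 7 of 12 megakaryocyte, 6 of 10 T and NK cell, 8 of 16 eosinophil, basophil and mast cell, 2 of 10 B cell and 1 of 8 osteoclast markers had a median under 1 CPM, and Tek, Gzmb, Cd6, Fcer1a and Ear6 were at 0 in all 12 libraries. Others were well detected, among them the endothelial marker Cd93 (75.3 to 323 CPM), the mesenchymal marker Lpl (7.68 to 176 CPM) and the megakaryocyte marker Nfe2 (21.6 to 69.4 CPM), genes that myeloid cells can also express. The list is limited to the genes of the table, so that markers outside it were not analysed here.

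No gene differed between endosteal and central AML cells at an adjusted p under 0.05 (0 of the 4591 genes tested, 0.0%) with clone as a block in limma. At an unadjusted p under 0.05, 186 genes (4.05%) were higher in endosteal cells and 31 genes (0.675%) were lower. On the same reads, edgeR and voom also called 0 genes and DESeq2 called 1, Smim5. The counts of higher and lower genes moved with the scaling and the test, to 159 and 68 with TMM factors, 142 and 81 with quantile normalization, 141 and 77 with voom, 204 and 52 with edgeR and 231 and 82 with DESeq2. The number past the unadjusted threshold, 217 in all, also moved with single libraries: it was 127 without library 2, 142 without library 3, 137 without library 21 and 388 without library 20. The median difference over all genes was 0.01. An unadjusted threshold of 0.05 alone lets through about that share of genes in which nothing differs, so these counts are a background for what follows and not a list of changed genes.

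The 2 clones were then taken one at a time, in a fit of the 4 groups of libraries. In clone 1, 182 genes (3.96%) were higher and 202 genes (4.4%) lower at an unadjusted p under 0.05, and in clone 3, 171 genes (3.72%) were higher and 38 (0.828%) lower, with 0 genes past the adjusted threshold in either clone by limma, edgeR or voom. With TMM factors the split became 207 higher and 230 lower in clone 1 and 119 higher and 88 lower in clone 3. With edgeR it was 322 higher and 163 lower in clone 1. The median over all genes was -0.06 in clone 1 and 0.10 in clone 3, and TMM moved the clone 3 median to 0.01. The count of 384 genes in clone 1 was 189 without library 18, 155 without library 21 and 940 without library 20. The count of 209 genes in clone 3 was 105 without library 1, 107 without library 2, 109 without library 3 and 138 without library 4, and it was 336 without library 5 and 423 without library 18. The clones share an estimate of the spread in this fit. Library 18, of clone 1, thus moves the p-values of clone 3 and not its differences.

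Over all genes, the differences in the 2 leukemias were not correlated when all libraries, 18 included, were used. Across the 4591 genes, the difference in clone 1 and that in clone 3 had a Pearson correlation of -0.012, and 49.6% of genes had one sign in both. Genes are not independent replicates, and this correlation is a description. Spread between the 3 libraries of a group lowers it, also where a difference is shared by the clones. Among the 100 genes with the smallest p in clone 3, 46 had the same sign in clone 1. The test of the difference between clones (clone 1 minus clone 3) gave 82 genes (1.79%) that were positive and 218 (4.75%) that were negative at an unadjusted p under 0.05, and 0 past the adjusted threshold by limma, edgeR or voom. TMM turned these counts to 150 and 174 and quantile normalization to 200 and 155. The 300 genes were 158 without library 1, 178 without library 3, 184 without library 6 and 568 without library 20. The libraries themselves were close to each other within a clone: correlations between an endosteal and a central library ran from 0.819 to 0.981 in clone 1 and from 0.955 to 0.986 in clone 3, and those between libraries of one region from 0.855 to 0.974 and from 0.970 to 0.985. Libraries of different clones correlated at 0.732 to 0.944. Without library 18 these ranges were 0.949 to 0.981 between regions and 0.940 to 0.974 within a region in clone 1, and 0.885 to 0.944 between clones.

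**Figure D1:**
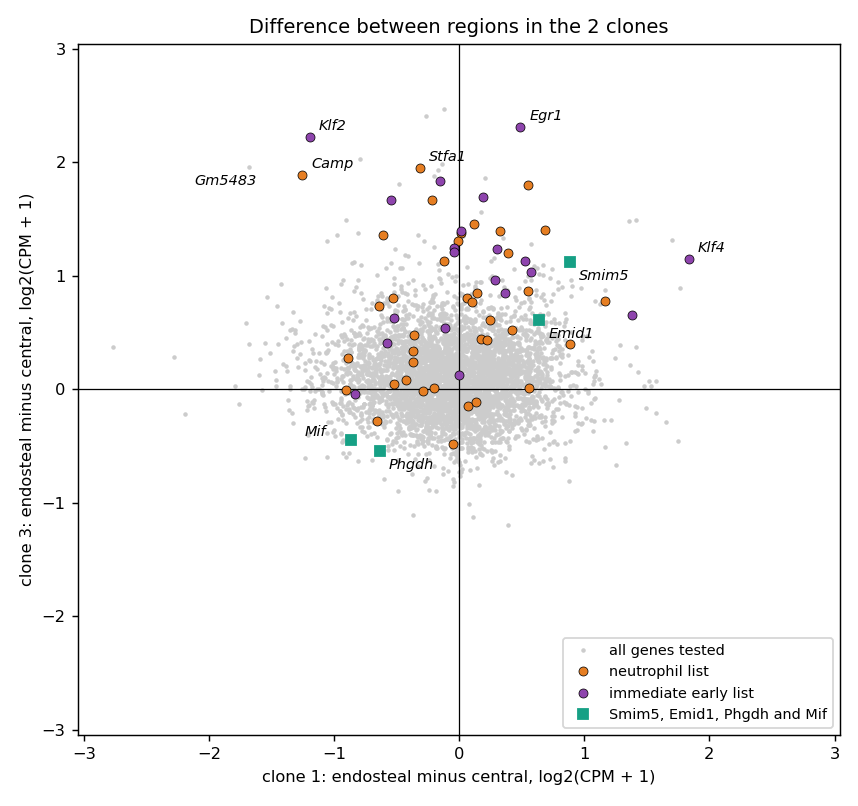
Each point is 1 of 4591 genes, with its difference (endosteal minus central, log2(CPM + 1)) in clone 1 on the x axis and in clone 3 on the y axis. Genes of the immediate early list are purple, those of the neutrophil list orange, and Smim5, Emid1, Phgdh and Mif green squares. The immediate early and neutrophil genes sit mostly above 0 on the y axis and on both sides of 0 on the x axis, while the cloud of all genes has no slope (correlation -0.012).

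Genes whose libraries did not overlap between the regions were then counted, as a description and not as a list of changed genes. Of the 4591 genes, 17 (0.37%) had every endosteal library above every central library of the same clone in clone 1 and in clone 3, and 7 (0.152%) had every endosteal library below. Within 1 clone the counts were 172 genes (3.75%) higher and 172 (3.75%) lower in clone 1, and 579 (12.6%) higher and 316 (6.88%) lower in clone 3. With a minimum of 5 CPM in place of 1 CPM, 14 of the genes tested were left that separated in both clones, against 24 in all.

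Smim5, which encodes a small membrane protein, had the smallest p of all genes. No gene had an adjusted p under 0.821 with clone as a block, so the genes below are described by their values, their differences and the SE of these. It had 16.3, 9.77 and 8.14 CPM in endosteal libraries of clone 1, against 7.92, 5.18 and 3.89 CPM in central ones, and 7.47, 7.03 and 9.18 CPM in endosteal libraries of clone 3, against 2.21, 2.79 and 4.51 CPM in central ones. Each endosteal library of a clone thus lay above all 3 central libraries of that clone. The difference was 1.0 (SE 0.23), with an adjusted p of 0.821 by limma, and 0.89 in clone 1 and 1.12 in clone 3. DESeq2 gave Smim5 a log2 fold change of 1.16 with an adjusted p of 0.0217, and the adjusted p ran from 0.0217 to 0.995 over 26 alternatives. In clone 19, which the comparison did not use, Smim5 was higher by 0.55 in endosteal cells.

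Emid1, an extracellular protein with an EMI domain, lay lower but separated as cleanly. Its values were 3.53, 3.50 and 4.47 CPM in endosteal and 2.17, 2.04 and 2.07 CPM in central libraries of clone 1. In clone 3 they were 1.16, 1.02 and 1.41 CPM in endosteal and 0.503, 0.233 and 0.596 CPM in central libraries. The difference was 0.62 (SE 0.14) and was nearly equal in the clones (0.64 in clone 1 and 0.61 in clone 3).

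Tesc, which encodes the calcium-binding protein tescalcin, was higher by 0.94 (SE 0.27). Endosteal libraries of clone 1 had 13.5, 31.6 and 10.8 CPM of Tesc, against 4.47, 10.5 and 7.42 CPM in central ones, and those of clone 3 had 6.70, 7.24 and 4.05 CPM, against 3.22, 3.11 and 2.90 CPM. Zfp608, a zinc finger protein gene, was higher by 0.72 (SE 0.21), and Brd1, a bromodomain scaffold of histone acetyltransferase complexes, by 0.48 (SE 0.15). Both separated the regions in both clones, and so did the pseudogene Gm15931, at 0.75 (SE 0.18) on values of 0.402 to 2.43 CPM. Cbfa2t3, a corepressor of hematopoietic transcription factors, was higher by 0.58 (SE 0.17) in the mean of both clones, and overlapped in clone 3 alone. The interleukin-36 gene Il1f9 was higher by 0.80 (SE 0.23) and overlapped in clone 1 alone. In clone 19 the differences of Tesc, Zfp608, Brd1, Gm15931, Cbfa2t3 and Il1f9 lay between -0.25 and 0.18.

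Genes lower in endosteal cells included 1 metabolic enzyme, whose replicates were close in clone 1 and less so in clone 3. Phgdh, which catalyses the first step of serine synthesis from glycolytic intermediates, had 16.9, 19.7 and 20.5 CPM in endosteal libraries of clone 1, against 31.1, 27.9 and 31.1 CPM in central ones. In clone 3 it had 5.92, 9.79 and 4.38 CPM in endosteal libraries, against 9.15, 10.9 and 9.29 CPM in central ones. The regions were apart in clone 1 and overlapped in clone 3 through library 3. The difference was -0.59 (SE 0.18, adjusted p = 0.821 by limma) and -0.72 without library 3.

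Mif, a cytokine that is stored in cells and released on stress, was among the abundant genes that were lower. It had 395, 182 and 396 CPM in endosteal libraries of clone 1, against 464, 698 and 532 CPM in central ones. It had 303, 338 and 377 CPM in endosteal libraries of clone 3, against 484, 430 and 466 CPM in central ones. The difference was -0.65 (SE 0.22), and -0.46 without library 18, which had the lowest value. Pgrmc1, a heme-binding membrane protein, was lower by 0.57 on the log2 scale (difference -0.57, SE 0.19), and Xkr8, a lipid scramblase, had a difference of -0.55 (SE 0.18). Mif, Pgrmc1 and Xkr8 each had all endosteal libraries below all central libraries in both clones. Prdm16, a transcription factor of stem cells, had a difference of -0.60 (SE 0.22), and its regions overlapped in clone 1, where endosteal library 20 (14.6 CPM) lay between the central values of 13.1 and 15.5 CPM.

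**Figure D2:**
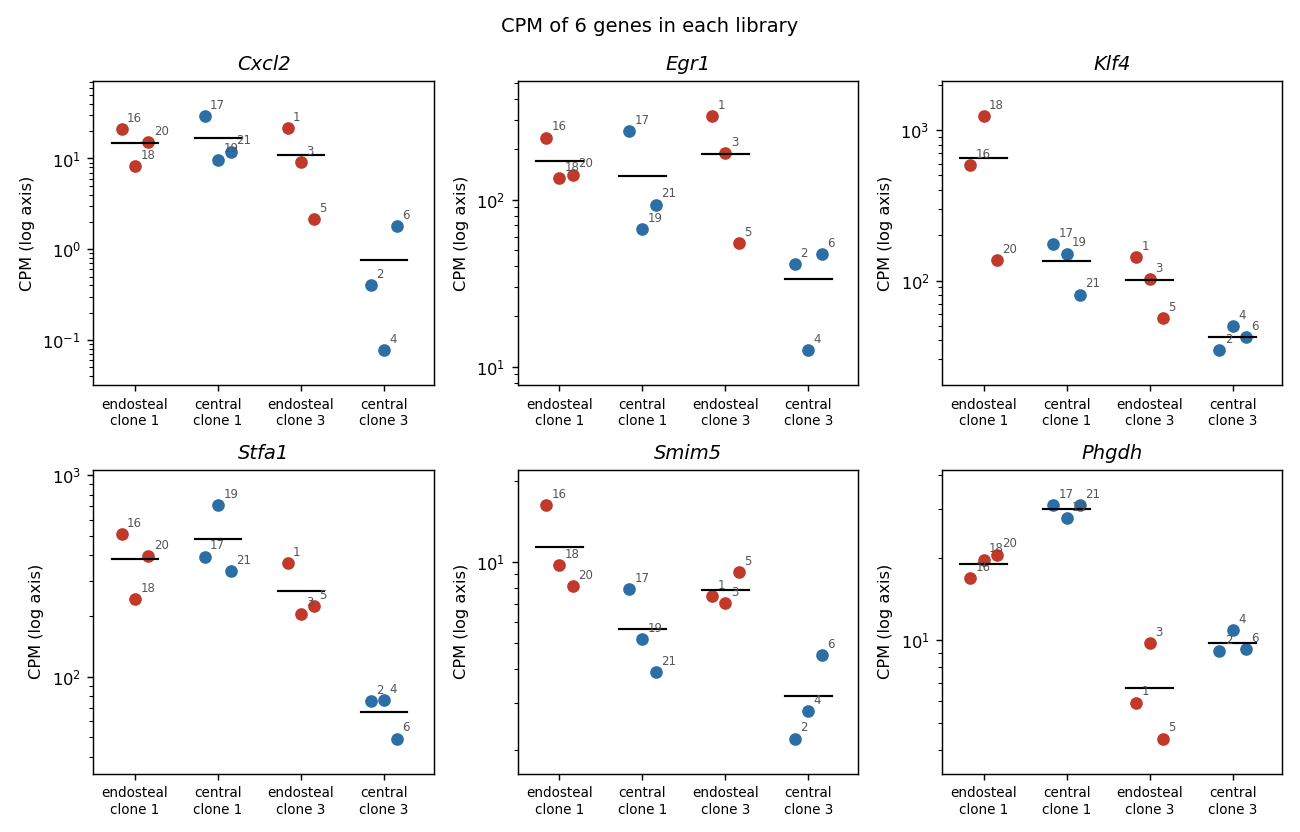
CPM on a log axis of Cxcl2, Egr1, Klf4, Stfa1, Smim5 and Phgdh in the 12 libraries, in columns for endosteal and central libraries of clone 1 and of clone 3. Points are libraries with their numbers, and bars are the means of 3. Smim5 separates the regions in both clones, while Stfa1 and Cxcl2 do so in clone 3 and not in clone 1.

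The chemokine gene Cxcl2, whose product draws neutrophils through the receptor CXCR2, was among the genes the study followed. Its transcription is known to be driven by NF-κB. The 250 bases before the RefSeq start of Cxcl2 (chromosome 5, GRCm38.p6, chr5:90903649-90903898, plus strand) are printed because they hold 3 matches to a κB motif (GGG, any 3 bases, then TTCC, on either strand), shown in capitals. Of these, 2 overlap, at 97 to 88 and 96 to 87 bases before the start, and the other lies 78 to 69 bases before it.
Cxcl2: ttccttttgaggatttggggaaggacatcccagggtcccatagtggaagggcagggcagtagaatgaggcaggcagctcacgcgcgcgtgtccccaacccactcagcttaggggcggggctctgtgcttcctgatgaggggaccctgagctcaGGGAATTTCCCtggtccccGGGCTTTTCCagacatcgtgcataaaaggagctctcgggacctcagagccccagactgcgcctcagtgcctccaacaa
The same letters were found in the 250 bases before 4.65% of 32851 mouse starts, and a match is a description of the sequence and not a measured site.

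In clone 3 Cxcl2 had 21.8, 9.07 and 2.15 CPM in endosteal libraries, against 0.402, 0.078 and 1.79 CPM in central ones. In clone 1 it had 21.1, 8.20 and 15 CPM in endosteal libraries, against 29.3, 9.71 and 11.9 CPM in central ones. All endosteal libraries lay above all central ones in clone 3, and the regions overlapped in clone 1. The difference was 2.47 (SE 0.65, adjusted p = 0.866 by limma) in clone 3 and -0.12 (SE 0.65) in clone 1, and the difference between clones had an adjusted p of 0.72. With clone as a block the difference was 1.18 (SE 0.56), with p = 0.125 by the exact two-sided permutation test of region within clones, for which the smallest possible p was 0.005. The value in clone 3 was 1.8 without library 1 and 3.23 without library 5, and that of both clones was 1.47 without library 18 and 0.73 without library 1. In clone 19 Cxcl2 was higher by 1.85 in endosteal cells.

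Tnf, the cytokine upstream of that pathway, and Vegfa, the main growth factor of blood vessels, were read in the same way. Tnf had 8.05, 5.22 and 6.19 CPM in endosteal libraries of clone 1, against 21.1, 9.62 and 4.50 CPM in central ones, and 7.08, 4.79 and 6.03 CPM in endosteal libraries of clone 3, against 1.81, 2.64 and 6.05 CPM in central ones. The regions overlapped in both clones. The difference of Tnf was 0.09 (SE 0.36, exact permutation p = 0.85), at -0.56 in clone 1 and 0.73 in clone 3, and its sign turned in several alternatives, to -0.11 without library 2 and to -0.05 with edgeR. Vegfa had 5.63, 17.8 and 6.08 CPM in endosteal libraries of clone 1, against 7.41, 5.74 and 7.67 CPM in central ones, and 13.9, 9.79 and 4.96 CPM in endosteal libraries of clone 3, against 2.61, 5.12 and 2.90 CPM in central ones. A single library, 18, held the high value of clone 1. The difference of Vegfa was 0.72 (SE 0.32), with an exact permutation p of 0.095, and 0.55 without library 18.

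Immediate early genes are switched on within minutes of a stimulus without new protein synthesis, and many encode transcription factors of the FOS, JUN, EGR and KLF families. Of the 20 genes of this list that were tested, 9 were higher and 0 lower at an unadjusted p under 0.05 with clone as a block, with a median difference of 0.62, against 0.01 over all genes. In clone 3 the counts were 9 higher and 0 lower with a median of 1.14, against 0.10 over all genes, and in clone 1 the median was 0.01, against -0.06. Of all genes, 4.05% were higher and 0.675% lower with clone as a block, and 3.72% and 0.828% in clone 3. The difference between clones (clone 1 minus clone 3) had a median of -0.96 over the list, with 6 genes negative and 0 positive at an unadjusted p under 0.05. That test had 4.75% of all genes negative and 1.79% positive. None of the 20 genes passed the adjusted threshold in limma. With clone as a block, the 9 genes were 2 without library 1, 2 or 4, 4 without library 3 and 5 without library 16 or 21. In such bulk libraries, fewer cells that express a gene and less of its RNA in each cell cannot be told apart.

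Egr1, a zinc finger transcription factor, had 316, 190 and 54.9 CPM in endosteal libraries of clone 3, against 41.0, 12.6 and 47.1 CPM in central ones. In clone 1 Egr1 had 235, 134 and 141 CPM in endosteal libraries, against 258, 66.2 and 93.2 CPM in central ones. Each endosteal library of clone 3 was above the central ones, library 5 by little, and in clone 1 the highest value was that of central library 17. The difference was 2.31 (SE 0.66) in clone 3, 0.49 (SE 0.66) in clone 1 and 1.4 (SE 0.51, adjusted p = 0.821 by limma) with clone as a block.

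Klf4, a factor of monocyte development and of the same list, had a higher mean in endosteal cells of both leukemias. Endosteal libraries of clone 1 had 584, 1240 and 136 CPM of Klf4, against 176, 151 and 80.8 CPM in central ones, and those of clone 3 had 143, 102 and 56.6 CPM, against 34.6, 49.9 and 42.1 CPM in central ones. The regions overlapped only through library 20 of clone 1. The difference of Klf4 was 1.49 (SE 0.44), and 1.14 without library 18, which had the highest value. Klf2, a related factor that quiets inflammation, was read beside it. Its endosteal libraries had 548, 309 and 143 CPM in clone 3, against 42.3, 52.2 and 104 CPM in central ones, and 466, 71.4 and 383 CPM in clone 1, against 548, 507 and 556 CPM in central ones. The difference of Klf2 was 2.22 in clone 3 and -1.19 in clone 1, where it was -0.34 without library 18, and the difference between clones had an adjusted p of 0.72 by limma.

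Other members of the list were higher by less. Dusp5, a phosphatase of nuclear ERK, was higher by 0.80 (SE 0.36) with clone as a block and by 0.60 without library 18, whose 44.9 CPM was its highest value. Ier3, an early response gene of cell survival, was higher by 0.61 (SE 0.24). Library 1 was the highest clone 3 library for 18 of the 20 genes. Without library 1, the clone 3 median was 0.70 with 5 genes past the unadjusted threshold, and without library 5 it was 1.53 with 14 genes. The clone 3 count was also 5 without library 2. In clone 1 the highest library was the central library 17 for 9 of the 20 genes. The clone 1 median of the list was 0.33 without library 17 and -0.12 without library 19. Without libraries 3 and 18 together, which was tried after seeing the data, 3 of the 20 genes were past the unadjusted threshold with clone as a block.

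**Figure D3:**
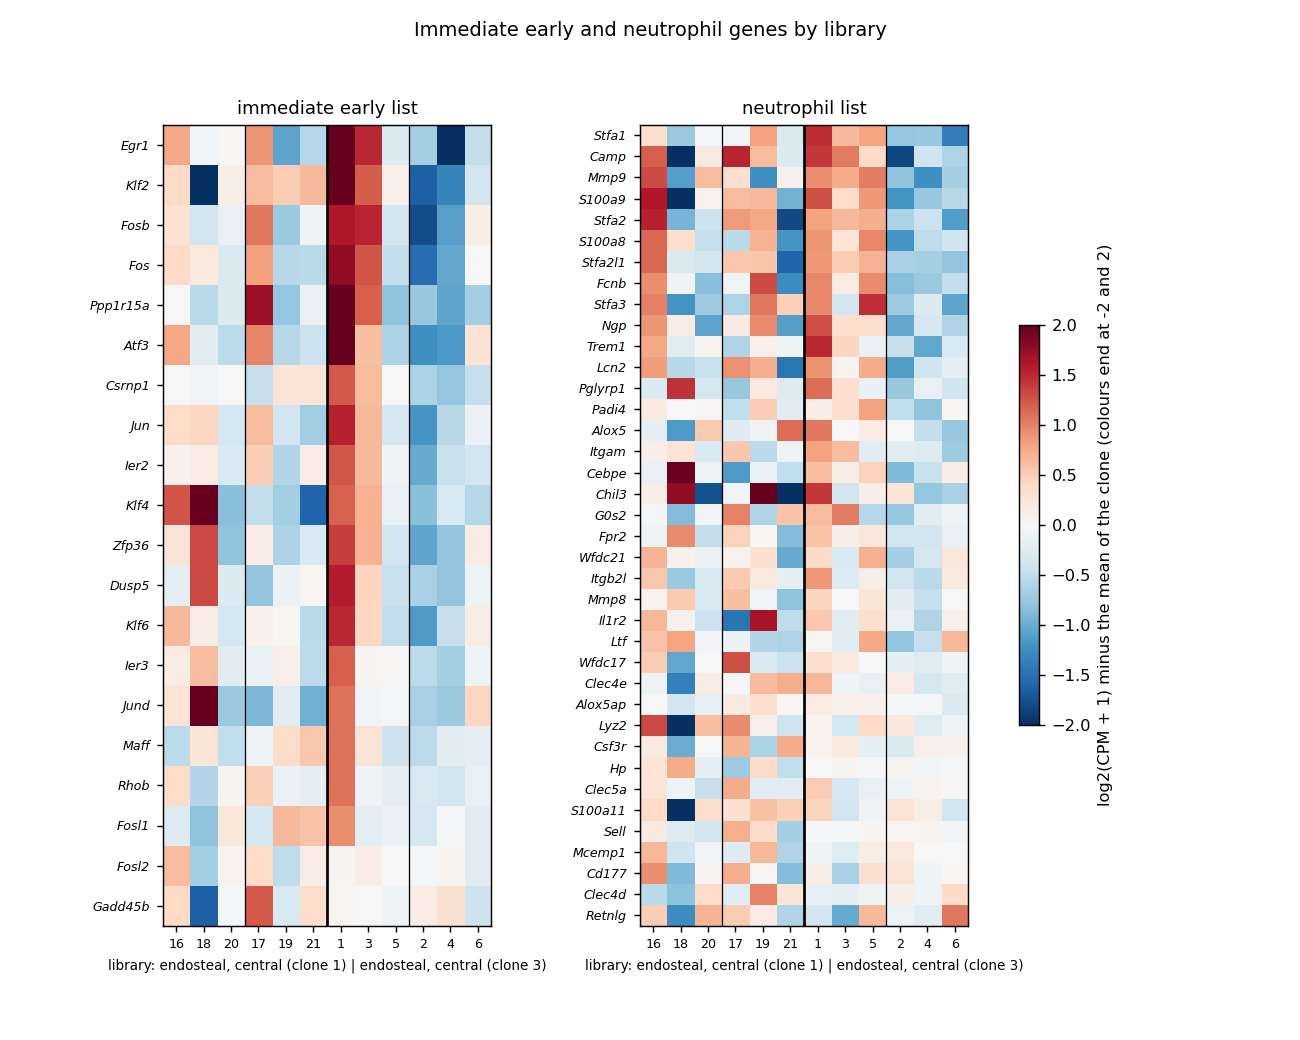
Color shows log2(CPM + 1) minus the mean of the clone for the 20 immediate early genes (left) and the 38 neutrophil genes (right) in each library, with endosteal before central libraries and clone 1 before clone 3. In clone 3, library 1 is the highest for 18 of 20 immediate early and 23 of 38 neutrophil genes, and in clone 1 the central library 17 is the highest for 9 of 20 immediate early genes.

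Genes of TNF signaling through NF-κB were read as a list that shares genes with the immediate early list, so that the counts of these lists are not independent. Of 93 genes tested, 13 were higher and 0 lower at an unadjusted p under 0.05 with clone as a block, and the median difference was 0.24. In clone 3, 18 were higher and 0 lower with a median of 0.45, against a median of -0.04 in clone 1. Of all genes, 4.05% were higher and 0.675% lower with clone as a block, and 3.72% and 0.828% in clone 3. The count in clone 3 was 7 (median 0.30) without library 1, 8 without library 2, 11 without library 3 and 29 (median 0.61) without library 5, and library 1 was the highest clone 3 library for 53 of the 93 genes. The count with clone as a block was 2 to 4 without library 1, 2, 3 or 4, 6 to 8 without library 16, 19 or 21, and 6 without both 3 and 18. For the difference between clones, 15 genes were negative and 0 positive, against 4.75% and 1.79% of all genes. Trib1, a pseudokinase that directs the breakdown of C/EBPα, had 106, 27.9 and 23.7 CPM in endosteal libraries of clone 3, against 8.14, 5.90 and 24.4 CPM in central ones, which overlapped. Its difference was 1.86 in clone 3, or 1.19 without library 1, and 0.20 in clone 1.

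Neutrophil genes encode granule and calcium-binding proteins of maturing granulocytes. Of 38 genes tested, 11 were higher and 0 lower in clone 3 at an unadjusted p under 0.05, where 3.72% of all genes were higher, and their median was 0.67, against 0.10 over all genes. In clone 1 the median was 0.00, and it was -0.41 without library 16, -0.37 without library 21 and 0.12 without library 20. With clone as a block, 7 were higher and 0 lower, with a median of 0.35. Over all genes, 4.05% were higher and 0.675% lower in that fit. The summed level of all neutrophil genes in the table was 3257 to 6909 CPM in endosteal and 2439 to 5297 CPM in central libraries (exact permutation p = 0.11). Without library 1 the clone 3 count was 4 with a median of 0.47, and it was 6 without library 2 and 7 without library 4. With clone as a block it was 4 without library 2 or 21, 3 without library 4, 11 without library 19 and 12 without library 20, and 9 genes were past the threshold without libraries 3 and 18.

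S100a8, a subunit of the calcium-binding alarmin calprotectin, had 1822, 1188 and 1918 CPM in endosteal libraries of clone 3, against 431, 691 and 748 CPM in central ones, and 1658, 940 and 537 CPM in endosteal libraries of clone 1, against 511, 1208 and 326 CPM in central ones. Its difference was 1.4 in clone 3, 0.68 in clone 1 and 1.04 (SE 0.36) with clone as a block. Cebpe, the transcription factor of late granulocyte maturation, was higher by 0.97 (SE 0.34), and by 0.64 without library 18, which had 263 CPM, against 24.9 to 62.2 CPM in the other 5 endosteal libraries. Trem1, a receptor that amplifies inflammatory signals in myeloid cells, was higher by 0.80 (SE 0.30).

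Mmp9, a gelatinase stored in granules that cuts matrix proteins, had the smallest p of the proteases. It had 21.1, 18.3 and 22.6 CPM in endosteal libraries of clone 3, against 5.63, 3.96 and 6.30 CPM in central ones, and the groups did not overlap. In clone 1 Mmp9 had 30.0, 4.85 and 18.4 CPM in endosteal libraries, against 14.7, 4.35 and 12.4 CPM in central ones, and the low values were those of libraries 18 and 19. The difference of Mmp9 was 1.17 (SE 0.40, adjusted p = 0.821 by limma) with clone as a block and 1.55 without library 18. Its adjusted p ran from 0.24 to 0.993 over 26 alternatives, among them the fit without library 18.

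Proteases and their inhibitors as a list had 6 of 28 genes higher and 0 lower with clone as a block, with a median of 0.28, and 8 of 28 higher in clone 3, with a median of 0.34, against -0.07 in clone 1. Of all genes, 4.05% were higher and 0.675% lower with clone as a block, and 3.72% were higher in clone 3. The list holds BC117090 of the stefin cluster described below, where 3′ tags may be shared between copies. It also shares Mmp9 with the neutrophil list, so that the counts of these lists are not independent. The 6 genes were 3 without library 2, 3, 4 or 16 and 10 without library 18. The sign of the clone 1 median turned with single libraries. It was 0.21 without library 18, 0.05 without library 19 and -0.18 without library 21. Adam19, a membrane metalloprotease, was higher by 0.69 (SE 0.26), with 4.12, 5.40 and 2.40 CPM in endosteal libraries of clone 3, against 1.01, 1.24 and 1.36 CPM in central ones. Timp2, an inhibitor of metalloproteases, was higher by 0.53 (SE 0.21). Timp2 thus had the sign of Mmp9 and Adam19.

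The stefins, small inhibitors of cysteine proteases that mouse neutrophils express from a cluster of related genes on chromosome 16, were among the genes with the smallest p-values of clone 3. Stfa1 had 366, 206 and 225 CPM in endosteal libraries of clone 3, against 75.5, 76.6 and 49.2 CPM in central ones. In clone 1 it had 510, 243 and 397 CPM in endosteal libraries, against 394, 713 and 335 CPM in central ones. The lowest endosteal library of clone 3 was thus well above the highest central one, and in clone 1 the highest library was central. The difference was 1.95 (SE 0.37, adjusted p = 0.229 by limma) in clone 3 and -0.31 (SE 0.37) in clone 1, and the difference between clones (clone 1 minus clone 3) was -2.26, with an adjusted p of 0.72.

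BC117090, a stefin gene of the same cluster, had 208, 129 and 128 CPM in endosteal libraries of clone 3, against 42.2, 43.2 and 28.6 CPM in central ones, a difference of 1.98 (SE 0.33, adjusted p = 0.167 by limma), and a difference of -0.14 in clone 1, or 0.08 without library 18. BC100530 differed by 1.93, Csta1 by 1.81, Stfa2 by 1.46 and Stfa2l1 by 1.39 in clone 3, and all of them had their endosteal above their central libraries there. Their differences in clone 1 were -0.17 for BC100530, -0.48 for Csta1, 0.12 for Stfa2 and 0.33 for Stfa2l1. Single libraries turned these signs, to 0.25 for BC100530 and 0.27 for Csta1 without library 18 and to -0.75 for Stfa2 and -0.38 for Stfa2l1 without library 21. The last 300 bases of the stefin transcripts were 46.8% to 98.7% identical over 28 pairs of 8 genes, with the highest value for Stfa1 and BC100530, so that 3′ tags may be shared out between copies and single genes of the cluster are uncertain.

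The promoters of 3 of these genes are printed because the genes had the same direction in clone 3 and lie in a single cluster. They are the 250 bases before the RefSeq starts in GRCm38.p6 (Stfa1, chr16:36276898-36277147, plus strand, Stfa2, chr16:36408364-36408613, minus strand, and Stfa2l1, chr16:36156561-36156810, plus strand). Capitals mark the stretches of 15 or more bases that are identical in all 3.
Stfa1: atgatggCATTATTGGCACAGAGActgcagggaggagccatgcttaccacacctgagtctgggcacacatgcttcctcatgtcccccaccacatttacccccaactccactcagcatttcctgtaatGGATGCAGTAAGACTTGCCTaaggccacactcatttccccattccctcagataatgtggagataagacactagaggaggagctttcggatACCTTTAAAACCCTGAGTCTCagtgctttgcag
Stfa2: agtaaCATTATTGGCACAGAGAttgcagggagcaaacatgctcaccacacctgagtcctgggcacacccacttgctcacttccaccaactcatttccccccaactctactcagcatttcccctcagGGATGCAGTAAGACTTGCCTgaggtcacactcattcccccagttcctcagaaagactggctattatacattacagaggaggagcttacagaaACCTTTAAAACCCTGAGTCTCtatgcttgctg
Stfa2l1: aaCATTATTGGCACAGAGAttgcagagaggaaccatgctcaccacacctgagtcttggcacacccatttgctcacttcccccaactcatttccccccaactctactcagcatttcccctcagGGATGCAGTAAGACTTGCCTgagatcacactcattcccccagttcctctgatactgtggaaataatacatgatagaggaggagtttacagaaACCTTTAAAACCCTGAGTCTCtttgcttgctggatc
The shared stretches were 17, 20 and 21 bases long, and the nearest to the start lay 33 to 13 bases before that of Stfa1. Identity of the 250 bases reached 89.4%, for Stfa2 and Stfa2l1, and had a median of 80.3% over 10 pairs of the 5 stefin genes with a listed start. It was only 37.4% to 39.5% in the pairs with Csta1, which also was higher in endosteal libraries of clone 3. No match to the κB motif, to an AP-1 motif (TGANTCA, in 6.75% of all starts), to a C/EBP motif (TTNCGNAA, in 2.04%) or to the CArG box (in 1.47%), on either strand, was found in these 3 windows, which says only that these letters are not there.

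Fitted on its own 6 libraries, clone 3 gave 14 genes at an adjusted p under 0.05, 13 higher (0.283% of 4591) and 1 lower, with adjusted p-values of 0.0345 to 0.0478 by limma. The 13 were Mmp9, BC117090, BC100530, Stfa1, Stfa2, Stfa2l1, Csta1, Gm5483, S100a9, Prg2, Clec12a, Vcam1 and Stag3. In the fit of the 4 groups, the adjusted p of BC117090 in clone 3 ran from 0.0191 to 1.0 over 22 alternatives, and the single alternative that called genes was the one without library 18, with 5 calls (BC117090, Prg2, Gm5483, Stfa1 and BC100530). Prg2, the major basic protein of eosinophil granules, had 35.2, 24.9 and 21.3 CPM in endosteal libraries of clone 3, against 8.24, 4.97 and 6.64 CPM in central ones, a difference of 1.88, and -0.21 in clone 1, or 0.07 without library 18. Clec12a, an inhibitory lectin receptor of myeloid cells and AML blasts, had 223, 257 and 209 CPM in endosteal libraries of clone 3, against 113, 107 and 128 CPM in central ones, a difference of 0.98, and -0.52 in clone 1, or -0.20 without library 18.

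Vcam1, the adhesion molecule bound by the integrin VLA-4, had 37.7, 33.7 and 27.1 CPM in endosteal libraries of clone 3, against 10.8, 15 and 12.3 CPM in central ones, a difference of 1.31. In clone 1 Vcam1 had a difference of -1.05, or -0.41 without library 18, with 88.1, 25.6 and 114 CPM in endosteal libraries, against 93.6, 163 and 156 CPM in central ones. Among adhesion molecules and integrins as a list, 5 of 30 genes were higher and 0 lower in clone 3, with a median of 0.38. In clone 1, 1 gene was higher and 4 were lower, with a median of -0.21. With clone as a block the median of the list was 0.12, and it was 0.28 without library 18 and 0.09 without library 3. Of all genes, 3.72% were higher and 0.828% lower in clone 3, and 3.96% and 4.4% in clone 1. The gene that was lower in the fit of clone 3 alone was Tmem215, a membrane protein, which had 35.4, 37.3 and 42.1 CPM in endosteal libraries, against 92.3, 98.4 and 76.3 CPM in central ones, a difference of -1.19. In clone 1 Tmem215 was near the floor, at 0.093 to 1.76 CPM over the 6 libraries.

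Genes of hypoxia and glycolysis serve anaerobic use of glucose and the response to low oxygen. Of 17 such genes, 5 were lower and 0 higher in clone 1 at an unadjusted p under 0.05, where 4.4% of all genes were lower, with a median of -0.54, and the median in clone 3 was 0.05. For the difference between clones (clone 1 minus clone 3), 5 of the 17 were negative and 0 positive, and 1 was negative without library 1, 3 or 17. That test had 4.75% of all genes negative and 1.79% positive. Slc2a3, a glucose transporter, had 4.63, 1.42 and 3.44 CPM in endosteal libraries of clone 1, against 11.2, 7.03 and 5.72 CPM in central ones, with no overlap. The difference of Slc2a3 was -1.15 (SE 0.33, adjusted p = 0.594 by limma) in clone 1 and 0.20 in clone 3. Ankrd37, a target of hypoxia-inducible factor, had a difference of -0.61 in clone 1 and 0.01 in clone 3, and the mitophagy receptor Bnip3 one of -0.67 in clone 1, or -0.43 without library 18, and -0.18 in clone 3. Without library 18, 2 of the 17 genes were lower and the median in clone 1 was -0.28, and without library 17, 3 were lower.

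Arid4a, a chromatin-binding protein, was higher in all 3 endosteal libraries of clone 1, with 125, 231 and 87.1 CPM, against 64.8, 70.5 and 57.9 CPM in central ones. In clone 3 it lay between 48.3 and 63.1 CPM in all 6 libraries. The difference of Arid4a was 1.07 in clone 1, or 0.69 without library 18, and 0.04 in clone 3. Tmem171, a membrane protein, was separated in opposite directions, with 0.331, 0 and 0.459 CPM in endosteal libraries of clone 1, against 1.02, 1.29 and 1.22 CPM in central ones, and 0.515, 0.713 and 0.744 CPM in endosteal libraries of clone 3, against 0.302, 0.388 and 0.170 CPM in central ones. At such levels the values rest on few reads.

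Secreted and vascular genes were read as lists. These lists also hold Cxcl2, Vegfa and Mmp9, described above, so that their counts are not independent of those values. With clone as a block, 4.05% of all genes tested were higher and 0.675% lower at an unadjusted p under 0.05. Of 15 genes that promote angiogenesis, 3 were higher and 0 lower with clone as a block, with a median of 0.21, and of 9 that inhibit it, 1 was higher and 0 lower, with a median of 0.09. The 3 were Eng, Mmp9 and Vegfa, and the inhibiting gene was Timp2. Eng, a co-receptor of TGF-β on proliferating endothelium that some myeloid cells also carry, was higher by 0.64 (SE 0.22) on levels of 0.688 to 3.28 CPM in endosteal and 0.596 to 1.48 CPM in central libraries. Of 39 chemokines, cytokines and their receptors, 1 was higher and 0 lower, with a median of 0.09. That gene was Cx3cr1, the fractalkine receptor of monocytes, which was higher by 0.74 (SE 0.26) and by 0.54 without library 18. The inflammatory response list had 3 of 68 genes higher, 0 lower and a median of 0.04. Interferon response genes had 1 of 54 higher and 0 lower, with a median of -0.04, and the 10 heat shock and chaperone genes had 0 in either direction, with a median of -0.24. The 19 genes of the MLL-AF9 program had 0 higher and 1 lower, Prdm16, and 30 cell cycle genes had 1 higher and 0 lower.

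**Figure D4:**
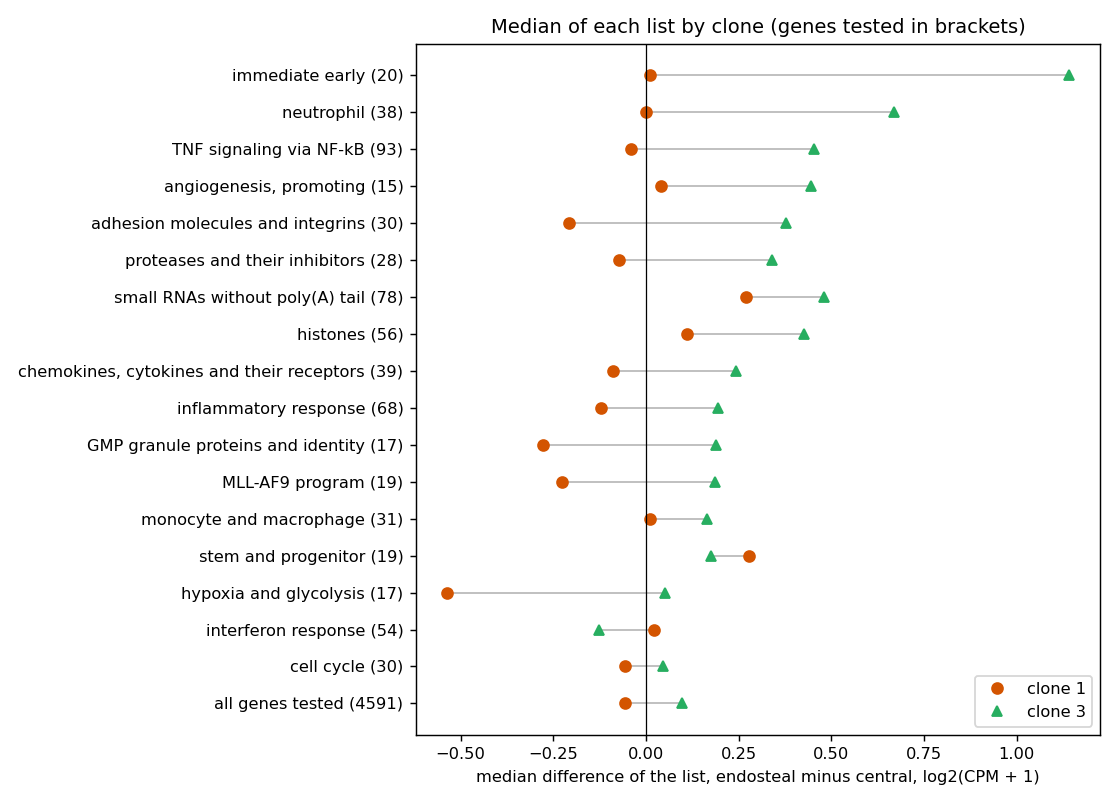
Median difference (endosteal minus central, log2(CPM + 1)) of each gene list in clone 1 (circles) and in clone 3 (triangles), with the number of genes tested in brackets and all 4591 genes in the bottom row. The medians were 0.01 in clone 1 and 1.14 in clone 3 for the immediate early list, 0.00 in clone 1 and 0.67 in clone 3 for the neutrophil list and -0.54 in clone 1 and 0.05 in clone 3 for the hypoxia and glycolysis list.

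Small RNAs without a poly(A) tail are RNAs that a library primed on poly(A) should hold little of. Of 78 such genes tested, 19 were higher and 0 lower at an unadjusted p under 0.05 with clone as a block, where 4.05% of all genes were higher, and their median was 0.34. Their summed level was 585 to 3488 CPM in endosteal libraries (median 1373) and 457 to 2001 CPM in central libraries (median 1066). Library 18 was the highest clone 1 library for 39 of the 78 genes and library 3 the highest clone 3 library for 55. Without library 3, 9 of the 78 genes were higher at an unadjusted p under 0.05. Snord13, a guide RNA of ribosomal RNA modification, had 226, 1583 and 173 CPM in endosteal libraries of clone 1, against 72.1, 175 and 140 CPM in central ones, and 140, 262 and 75.6 CPM in endosteal libraries of clone 3, against 51.0, 76.2 and 44.5 CPM in central ones. The difference of Snord13 was 1.51 (SE 0.48), and 1.05 without library 18. Histone genes, whose main transcripts also lack a poly(A) tail, had 1 of 56 higher and 0 lower, with a median of 0.27. With the small RNAs, histones and Gm42418 left out and CPM rescaled, 181 of 4479 genes were higher and 27 lower with clone as a block. These counts are at an unadjusted p under 0.05, and 0 genes passed the adjusted threshold. The median was then 0.63 for the immediate early list and 0.37 for the neutrophil list. Beyond this alternative, whether the content of such RNAs has a part in the other differences was not tested.

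Markers of other cell types were compared as summed levels. The summed megakaryocyte markers were 93.5 to 245 CPM in endosteal and 46.2 to 133 CPM in central libraries, a difference of 0.56 with an exact permutation p of 0.015 and an adjusted p of 0.195 over the 13 values tested in this way. In that sum Nfe2 and Plek had the highest medians over the 12 libraries (47.5 and 24.5 CPM). Gp1bb, also in the sum, had 112 CPM in library 18, against 6.78 to 11.6 CPM in the other endosteal libraries. The platelet genes Pf4, Ppbp and Gp5 had medians of 0.225, 0.211 and 0 CPM. Of the 6 megakaryocyte genes tested singly, 2 were higher, the integrin Itgb3 (0.57, SE 0.24) and the platelet glycoprotein gene Gp1bb (1.42, SE 0.52, and 0.90 without library 18, which had 112 CPM). Summed osteoblast and mesenchymal markers were 96.5 to 207 CPM in endosteal and 62.6 to 154 CPM in central libraries (exact permutation p = 0.065), and erythroid markers 53.6 to 89.2 CPM in endosteal and 55.4 to 73.7 CPM in central libraries (exact permutation p = 0.24). Lpl and Runx2 had the highest medians of the osteoblast and mesenchymal markers (64.7 and 32.6 CPM). Col1a1, Col1a2, Bglap, Sparc and Postn had medians of 0 to 0.236 CPM. Monocyte and macrophage genes had 4 of 31 higher and 0 lower with clone as a block. Over all genes, 4.05% were higher and 0.675% lower in that fit. The part of such cells in the gene differences above was not tested.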

How the data were processed

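The study prepared QuantSeq 3′ mRNA libraries from sorted cells. Per the study's methods and the submitters' processing notes, the authors used cutadapt (1.9) for trimming, HISAT2 for mapping to mm10, featureCounts for the reads of each gene, and voom with limma for testing (the other versions and the annotation are not given in the sources used here). The deposited table holds CPM per library, scaled by the authors to the library total and rounded to 3 decimals. It also holds columns of the authors' own comparison, group values and an FDR (an adjusted p-value), which were not used beyond finding that all 5486 deposited genes have an FDR under 0.05. Such a selection can raise the share of genes that vary in any contrast. Of the gene names, 5350 matched 1 gene of the Gencode annotation, 16 several and 120 none.

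Genes with at least 1 CPM in at least 3 of the 12 libraries were tested (4591) with limma (3.58.1, R 4.3.3) on log2(CPM + 1), with a trend in the prior variance, clone as a block, two-sided tests and Benjamini-Hochberg adjustment over all genes. Values within a clone and the difference between clones came from a fit of the 4 groups. Since CPM steps gave whole reads for 100% of the low values in all libraries (within 0.1 read), edgeR (4.0.16), voom and DESeq2 (1.42.0) were run on these reads as alternatives. Single values were tested by exact permutation of region within clones (400 arrangements).

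Named genes were Cxcl2, Tnf and Vegfa, those with the smallest p in each comparison and each list, those whose regions did not overlap, and those called in an alternative; not all are printed. The comparison and the lists were chosen with earlier results of these data known, and a list is described by counts and medians only. The fits were tested on simulated data of 4591 genes, where the comparison with clone as a block recovered 0, 40, 60 and 88% of genes set to differ by 0.5, 1, 1.5 and 2 on the log2 scale, and that in clone 3 0, 10, 36 and 62%. In each comparison 4 unchanged genes were also called. Counts were drawn for each gene on its own, so shifts shared by many genes of a library were not simulated. The shares may thus be higher than the real libraries allow. Promoter sequences are from RefSeq, GRCm38.p6. Figures were drawn with matplotlib 3.10.9.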

Additional observations from a re-analysis of the deposited data

Results flagged for a closer look

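Within the 6 endosteal or the 6 central libraries, which pool both clones, 110 values of named genes and library properties were searched for a single library that stood far from the other 5. A chance rate of about 1 in 20 such groups holds only for values drawn from a single normal distribution. CPM values pooled over both clones, of genes partly chosen by their p, need not follow it. The 11 groups with such a library, 8 in endosteal and 3 in central libraries, are thus a description and were not compared with chance.

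Endosteal library 18 held 6 of them. It had 414 genes at 0, against 288 to 326 in the other 5, Tesc at 31.61 CPM (others 4.05 to 13.5), Dusp5 at 44.88 CPM (others 2.81 to 15.3), Cebpe at 263.4 CPM (others 24.9 to 62.2), Snord13 at 1583 CPM (others 75.6 to 262) and Gp1bb at 112.5 CPM (others 6.78 to 11.6). Endosteal library 16 had Smim5 at 16.33 CPM, against 7.03 to 9.77 in the others, and Stfa2l1 at 12.91 CPM, against 3.90 to 6.18. Among central libraries, library 17 had Egr1 at 258 CPM (others 12.6 to 93.2), and library 19 had Csta1 at 45.15 CPM (others 3.24 to 18.8) and Bnip3 at 23.87 CPM (others 13 to 15.8).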

How the results depend on the processing

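No gene passed the adjusted threshold with clone as a block in any alternative except DESeq2 (1) and clone 3 alone (14). The 217 genes at an unadjusted p under 0.05 were 62 without the clone block, 63 in clone 1 alone and 633 in clone 3 alone, and 127 to 388 when single libraries were left out. Such leave-outs gave 155 to 940 genes in clone 1, 105 to 423 in clone 3 (0 to 5 at an adjusted p under 0.05) and 158 to 568 for the difference between clones. Without libraries 3 and 18, an alternative chosen after seeing the data, clone 1 had 188 genes. Of 24 genes that separated the regions in both clones, a minimum of 5 CPM, also chosen after seeing the data, left 14. In the fit of the 4 groups the clones share an estimate of the spread. Leaving out library 18, of clone 1, thus left the clone 3 differences as they were (median 0.10) and changed their p-values. Beyond this and the fewer genes or libraries that the alternatives hold, why these counts moved was not tested.

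Of the 51 named genes, 17 changed sign in the value with clone as a block or in that of 1 clone fitted alone. In clone 1 alone these were Cxcl2 (-0.12), Tnf (-0.56), BC117090 (-0.14), Stfa1 (-0.31), BC100530 (-0.17), Csta1 (-0.48), Prg2 (-0.21), Clec12a (-0.52), Klf2 (-1.19), S100a9 (-0.22), Gm5483 (-1.68), Vcam1 (-1.05), Stag3 (-0.03) and Tmem215 (0.39). In clone 3 alone they were Ankrd37 (0.01), Slc2a3 (0.20) and Tmem171 (0.37). Tnf was -0.05 with edgeR and -0.04 with DESeq2. With single libraries left out, Tnf ran from -0.11 to 0.38, Gm5483 from -0.19 to 0.86 and Vcam1 from -0.05 to 0.54. Values within clone 1 of other genes also turned, to -0.10 for Adam19 without library 16, -0.03 for Trib1 without library 17 and -0.20 for Vegfa without library 18. The cause was not tested.

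No paired analysis was possible because the columns carry no number shared by an endosteal and a central library of a clone. With 3 libraries per region and clone, differences of 0.5 on the log2 scale were below what the test recovered in simulated data.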
